A study of Arabidopsis thaliana with 28 samples.

Results

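A mutation of the histone deacetylase gene HDA6 and mutations of genes for the histone variant H2A.Z were combined in one line, and the genes described here are those whose level in that line departed from the sum of the 2 single effects. The departure is the difference (hda6-1 h2a.z-5 minus h2a.z-5) minus (hda6-1 minus Columbia) on the log2 scale. A negative value means that the combined mutant lay below the sum of its single mutants, and a positive value that it lay above. The 12 libraries of 4 groups enter it, of 28 libraries in the series. Of 20555 genes tested, 31 departed: 17 below the sum (0.0827% of the genes tested) and 14 above it (0.0681%), at an adjusted p under 0.05.

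Messenger RNA of Arabidopsis thaliana seedlings was sequenced 12 days after germination. All plants of the 4 groups grew on soil in long days at about 21 °C after 4 days of stratification at 4 °C, and each group had 3 libraries that the series text calls independent biological replicates. Columbia is the wild type accession Columbia-0. The line h2a.z-5 is a triple mutant: per its label, HTA8 holds an added adenosine behind base 241 and stops early after base 318, and the T-DNA insertions SALK_054814 and SALK_017235 hit further genes, which the label does not name. The series' design text writes nrp1-1 nrp2-2 where the sample labels have h2a.z-5; the sample labels are followed here. The line hda6-1 is the insertion SALK_201895C, and hda6-1 h2a.z-5 joins it with the triple mutant. The hda9-1 (SALK_007123) and hda9-1 h2a.z-5 groups, with 3 libraries each, are used only for one comparison and for the levels of some genes.

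HDA6 is a histone deacetylase of the RPD3 family, known in Arabidopsis for keeping transposable elements, repeats and some genes silent together with DNA methylation. H2A.Z is a variant of histone H2A that the SWR1 complex places near the starts of genes; HTA8, HTA9 and HTA11 encode it. Depending on the gene, loss of H2A.Z is known to lower or to raise transcription. The series is about the relation between deacetylases and H2A.Z in chromatin.

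Each library held between 32795474 and 39633678 gene counts, and levels are given as CPM (counts relative to the library total) with TMM factors, with SD over n = 3. The libraries read as leafy seedlings: the 13 leaf and photosynthesis markers, with RBCS1A, LHCB1.1 and RCA among them, were all detected in each library and summed to between 107108 and 170248 CPM, while the 16 seed genes summed to at most 1.65 CPM. The 17 root markers, of which at least 8 were detected in each library, summed to between 56.4 and 104 CPM. The share of root tissue was not tested.

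The departures of all genes tested centred near 0. The median log2 departure over all genes tested was 0.00488, with quartiles of -0.151 and 0.171, and the median SE of a departure was 0.191. An absolute departure over 1 was seen in 4.25% of the genes. At an unadjusted p under 0.05 there were 1420 genes, 633 above and 787 below the sum. "edgeR adjusted p" below is the two-sided p of edgeR's quasi-likelihood test with replicate number as a block, after Benjamini-Hochberg adjustment over all genes tested. At an adjusted p under 0.1 there were 40 genes. The counts depend on the test: 7 genes above and 6 below were called without the replicate block, and 29 and 47 by DESeq2, while 14 of the 31 calls held whichever library was left out. Just inside the threshold lay AT1G36675 and AT1G34440 (edgeR adjusted p = 0.048 for both), and just outside lay CRCK3 (departure 1.15 ± 0.20, SE, edgeR adjusted p = 0.0535), a receptor-like kinase gene, and AT3G53310 (-1.47 ± 0.27, edgeR adjusted p = 0.0726).

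The 31 genes fell into 6 classes by which single mutant had changed. Below the sum, 8 genes were higher in both single mutants, so that the rises were not added (a shared rise). A further 9 were called higher in hda6-1 and not in h2a.z-5, and of these 3 were not called higher in the combined mutant than in h2a.z-5 (rise lost) and 6 still were (rise reduced). Above the sum, 1 gene was lower in both single mutants (a shared fall), and 13 were called lower in h2a.z-5 and not in hda6-1. Of these 13, 9 were not called lower in the combined mutant than in hda6-1 (fall lost) and 4 still were (fall reduced). The class counts were unsteady: with 1 library left out they ranged over 5 to 8 shared rises, 1 to 2 lost and 1 to 4 reduced rises of hda6-1, 0 to 3 shared falls, and 5 to 10 lost and 1 to 6 reduced falls of h2a.z-5. DESeq2 gave 21, 14, 10, 3 and 15 for the first 5 of these. Among the 31 genes of the edgeR fit, none had a rise of h2a.z-5 lost or reduced or a fall of hda6-1 lost or reduced. None of the 31 departed without a change in a single mutant. This does not hold for every setting. Of the DESeq2 calls (29 above and 47 below), some fell outside these 6 classes and were not counted by class. Of the 31 genes, 18 are annotated as protein coding, 5 as pseudogenes, 4 as lncRNA, 3 as ncRNA and 1 as misc_RNA; over all genes tested 95.7% are protein coding.

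**Figure D1:**
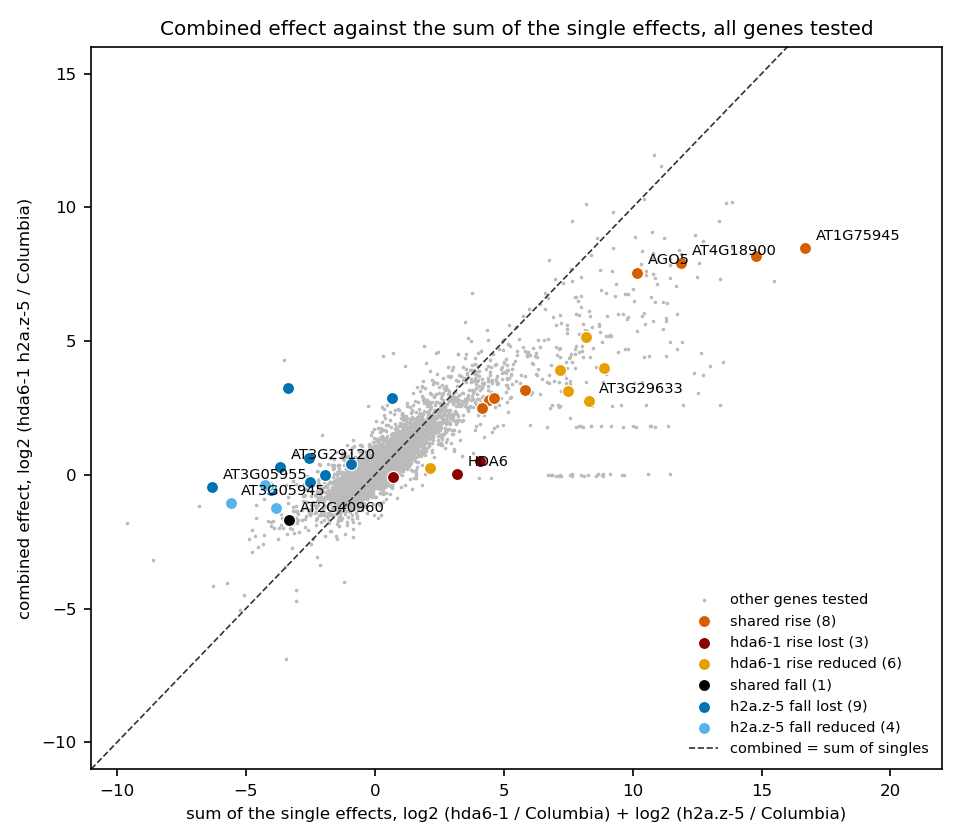
Log2 effect of the combined mutant against Columbia (vertical axis) plotted over the sum of the log2 effects of hda6-1 and h2a.z-5 (horizontal axis) for the 20555 genes tested. The dashed line marks equality; coloured points are the 31 called genes by class, and grey points, also those far from the line, were not called.

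**Figure D2:**
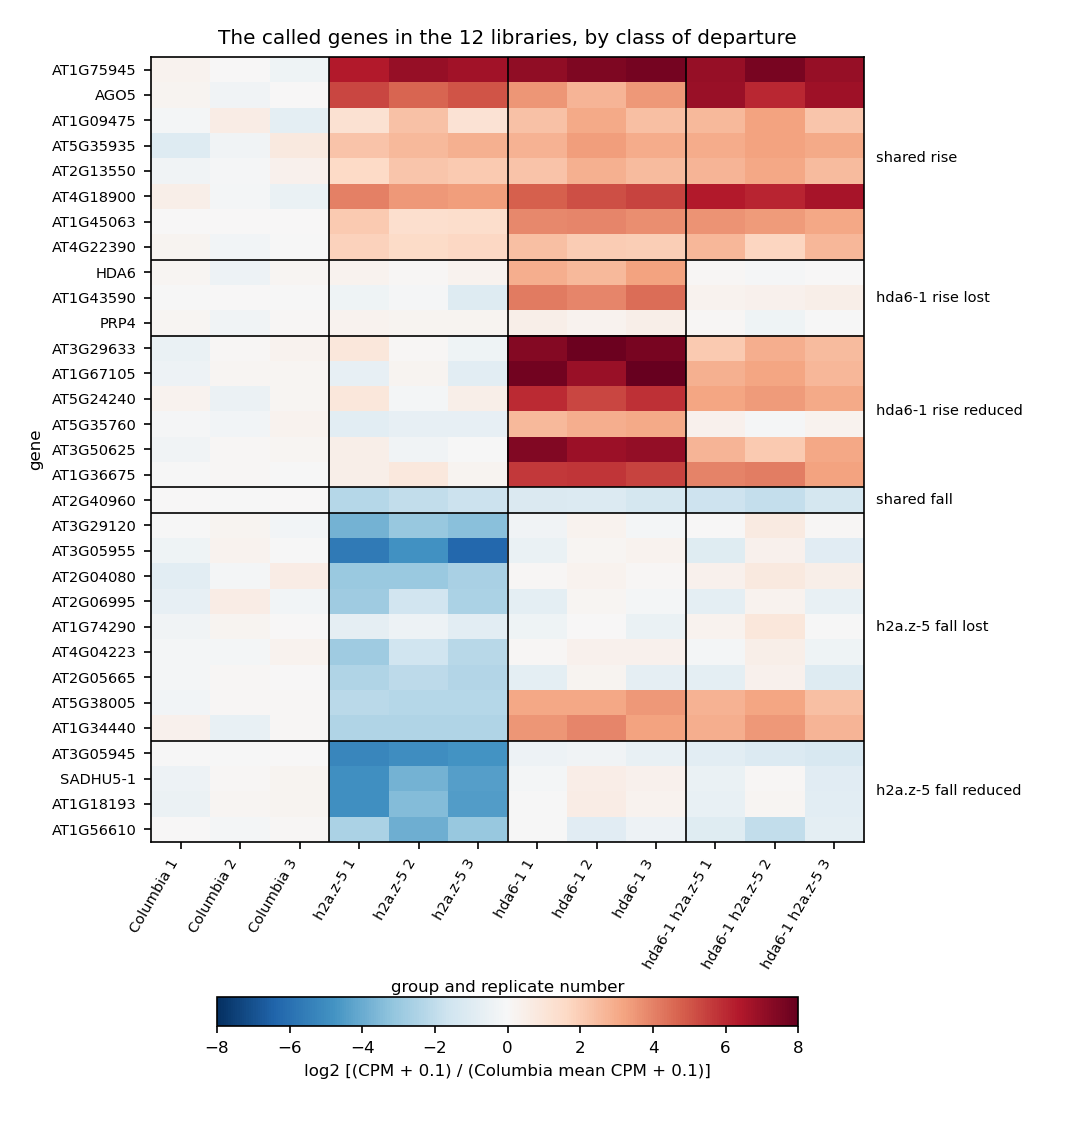
Each row is one of the 31 called genes and each column one of the 12 libraries; colour gives log2 of CPM + 0.1 over the Columbia mean + 0.1. The 8 shared rises are high in all 9 mutant libraries. Most hda6-1 rises are high in the libraries labelled hda6-1, and most of the 13 h2a.z-5 falls are low in the libraries of h2a.z-5. The exceptions are PRP4 (0.43 in hda6-1, log2 against Columbia) and AT1G74290 (-0.64 in h2a.z-5), whose changes are small on this scale.

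HDA6 itself had the smallest p among the lost rises, and it bears on the labels. Its level was 18.5, 12.8 and 18.9 CPM in Columbia, 20.5, 17.9 and 20.4 CPM in h2a.z-5, 126, 102 and 158 CPM in the libraries labelled hda6-1 and 17.8, 15.75 and 17.2 CPM in those labelled hda6-1 h2a.z-5. The 3 libraries labelled hda6-1 stood far above the other 9, which overlapped. The transcript was thus 2.95 ± 0.11 (log2, SE) higher in the libraries labelled hda6-1 than in Columbia (edgeR adjusted p = 1.97e-09), while the libraries labelled hda6-1 h2a.z-5 differed from Columbia by 0.03 ± 0.11 (edgeR adjusted p = 0.865). Its departure was -3.16 ± 0.16 (edgeR adjusted p = 2.47e-07). If both groups carry the same insertion, this is not a difference their labels give, so hda6-1 and the combined mutant here always mean the libraries so labelled. The gene next to it on the same strand, AT5G63100, overlaps HDA6 and had a departure of 0.0045 (edgeR adjusted p = 1.0). A count over the whole gene does not show which part of the transcript was read.

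Differences between the libraries labelled hda6-1 and Columbia were in part also seen between the combined libraries and h2a.z-5. Relative to Columbia, 1287 genes (6.26%) were higher and 412 (2.00%) lower in hda6-1. In the combined libraries relative to h2a.z-5, 924 (4.50%) were higher and 104 (0.506%) lower. These comparisons share no library: 592 genes were higher in both, which is 46.0% of the first list and 64.1% of the second, and 27 were lower in both (6.55% and 26.0%). Of the 1287, 94.8% were positive in the combined libraries relative to h2a.z-5, with a median log2 change of 0.87 there against 1.29 in the comparison that chose them. Over all genes tested the median log2 change of the combined libraries from h2a.z-5 was -0.00756.

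HTA8, HTA9 and HTA11 were low in both h2a.z-5 groups. HTA11, for example, was at 52.9, 60.3 and 70.9 CPM in Columbia and 55.004, 72.9 and 77.4 CPM in hda6-1, against 1.28, 2.05 and 1.602 CPM (h2a.z-5) and 2.44, 3.54 and 2.16 CPM in the combined libraries, with no overlap. No departure was called for the 3: it was 0.31 ± 0.16 for HTA8 (edgeR adjusted p = 0.758), -0.30 ± 0.14 for HTA9 (0.719) and 0.57 ± 0.22 for HTA11 (0.659). The 2 groups were not equally low. The combined libraries were called higher than h2a.z-5 for HTA8 (0.50 ± 0.12, edgeR adjusted p = 0.0266) and HTA11 (0.72 ± 0.18, 0.0369). For HTA9 that difference was -0.26 ± 0.10 and not called (0.146). On the linear scale HTA11 had a difference of -5.96 ± 5.07 CPM from the sum, with 0 of 3 replicate numbers positive. Relative to Columbia, 733 genes (3.57%) were higher and 876 (4.26%) lower in h2a.z-5; relative to hda6-1, 858 (4.17%) were higher and 990 (4.82%) lower in the combined libraries. Both comparisons named 349 of the higher genes (47.6% of the first list, 40.7% of the second) and 357 of the lower ones (40.8% and 36.1%).

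Rises that the single mutants shared were the first kind of departure. A total of 254 genes were called higher in both single mutants, and 8 of them were called below the sum and 0 above it; 41 were lower in both, with 1 above and 0 below. Both sets were chosen on values that also enter the departure, so a direction is favoured by the choice and nothing is read from these counts. AT1G75945, a gene for an uncharacterized protein, showed the largest departure. Its level was 0.0991, 0.0629 and 0.0253 CPM in Columbia, 13.0, 20.7 and 17.2 CPM in h2a.z-5, 21.7, 29.3 and 32.1 CPM in the libraries labelled hda6-1 and 20.7, 31.8 and 19.8 CPM in those labelled hda6-1 h2a.z-5. Columbia was almost silent and the 9 mutant libraries formed one band, in which the combined libraries overlapped both single mutants. The gene was also on in hda9-1 (16.03 ± 2.52 CPM) and hda9-1 h2a.z-5 (11.2 ± 1.98 CPM). Columbia was thus the only genotype group near 0, and the rise is not particular to hda6-1 and h2a.z-5. The rises were 8.71 ± 0.28 in hda6-1 and 7.98 ± 0.29 in h2a.z-5 (log2, SE), and the combined libraries were not called different from h2a.z-5 (edgeR adjusted p = 0.0635) or from hda6-1 (0.363). The departure was -8.21 ± 0.34 (edgeR adjusted p = 7.36e-08). Either mutation was accompanied by nearly the full level, since the product of the 2 fold changes would be 7531 CPM and the group mean was 24.1 ± 6.69 CPM.

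AGO5 encodes an Argonaute protein, a carrier of small RNAs known mainly from reproductive cells, and it behaved otherwise. Its level was 0.124, 0.0629 and 0.101 CPM in Columbia, 7.75, 4.90 and 6.25 CPM in h2a.z-5, 2.18, 1.17 and 2.04 CPM in the libraries labelled hda6-1 and 23.1, 12.6 and 21.1 CPM in those labelled hda6-1 h2a.z-5. The 4 groups did not overlap, and the combined libraries were the highest. AGO5 was 1.56 ± 0.11 higher in the combined libraries than in h2a.z-5 (edgeR adjusted p = 1.73e-06) and 3.38 ± 0.13 higher than in hda6-1 (3.48e-09). The departure was -2.62 ± 0.29 (edgeR adjusted p = 9.17e-04), below the sum of the log2 effects, because that sum corresponds to 118 CPM. The call was lost without the replicate block (edgeR adjusted p = 0.264) and in the fit on 18 libraries (0.178). On the linear scale the direction is the opposite: adding the 2 increases in CPM gives 8.001 CPM, and the combined libraries exceeded this by 10.9 ± 3.74 CPM (SD over the 3 replicate numbers, all 3 positive).

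AT4G18900, a gene for a WD40 repeat protein, was the second gene of this form. Its level was 0.0991, 0.0314 and 0 CPM in Columbia, 2.29, 1.503 and 1.36 CPM in h2a.z-5, 3.84, 4.96 and 5.98 CPM in the libraries labelled hda6-1 and 11.4, 9.62 and 13.9 CPM in those labelled hda6-1 h2a.z-5. The combined libraries again lay above every other library, and Columbia was near 0. Its departure was -3.97 ± 0.62 (edgeR adjusted p = 0.0263), and on the linear scale it exceeded the sum by 5.02 ± 1.70 CPM with all 3 replicate numbers positive. The call was lost in 8 of the 12 fits that left out 1 library, with an edgeR adjusted p of up to 0.0796 without Columbia replicate 2, and held only without Columbia replicate 1, h2a.z-5 replicate 3, hda6-1 replicate 1 or hda6-1 h2a.z-5 replicate 3.

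In the other 5 shared rises the combined group was not called different from hda6-1. AT1G09475, an uncharacterized RNA gene, was at 3.76 ± 1.88 CPM in Columbia, 12.4 ± 6.20 in h2a.z-5, 23.7 ± 7.27 in hda6-1 and 25.5 ± 9.52 in the combined libraries, a departure of -1.65 ± 0.20 (edgeR adjusted p = 0.00234). The pseudogene AT5G35935 was at 2.34 ± 1.51 CPM in Columbia, 14.7 ± 2.75 in h2a.z-5, 20.0 ± 3.99 in hda6-1 and 20.5 ± 2.13 in the combined libraries, a departure of -2.64 ± 0.34 (0.00438). AT2G13550, an uncharacterized coding gene, was at 1.70 ± 0.422 CPM in Columbia, 7.03 ± 1.53 in h2a.z-5, 10.5 ± 2.08 in hda6-1 and 12.6 ± 2.55 in the combined libraries, a departure of -1.76 ± 0.23 (0.00651). In these 3 genes the combined libraries overlapped those of hda6-1. Without the replicate block AT1G09475 (edgeR adjusted p = 1.00), AT5G35935 (0.13) and AT2G13550 (0.149) lost the call, and in the fit on 18 libraries AT1G09475 (0.19) and AT2G13550 (0.723) did. AT4G22390, which encodes an F-box associated protein, was at 0.735 ± 0.121 CPM in Columbia, 2.61 ± 0.316 in h2a.z-5, 3.63 ± 0.681 in hda6-1 and 4.28 ± 1.41 in the combined libraries (-1.63 ± 0.28, edgeR adjusted p = 0.0397); it kept the call only without hda6-1 replicate 3 or hda6-1 h2a.z-5 replicate 3 and reached 0.155 without h2a.z-5 replicate 2. AT1G45063, a gene for a predicted copper ion binding protein, had no count in Columbia and was at 0.215 ± 0.0998 CPM (h2a.z-5), 1.33 ± 0.0892 CPM (hda6-1) and 0.938 ± 0.170 CPM in the combined libraries. With a floor of 3 counts over the Columbia group its log2 departure is -3.5 or lower, and its call (edgeR adjusted p = 0.0289) was kept only without h2a.z-5 replicate 2 and reached 0.126 without h2a.z-5 replicate 1. On the linear scale these 5 genes and AT1G75945 lay below the sum in the mean, with differences between -20.5 and -0.604 CPM. All 3 replicate numbers were negative for each of them except AT4G22390 (-1.23 ± 1.18 CPM, 1 of 3 positive).

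**Figure D3:**
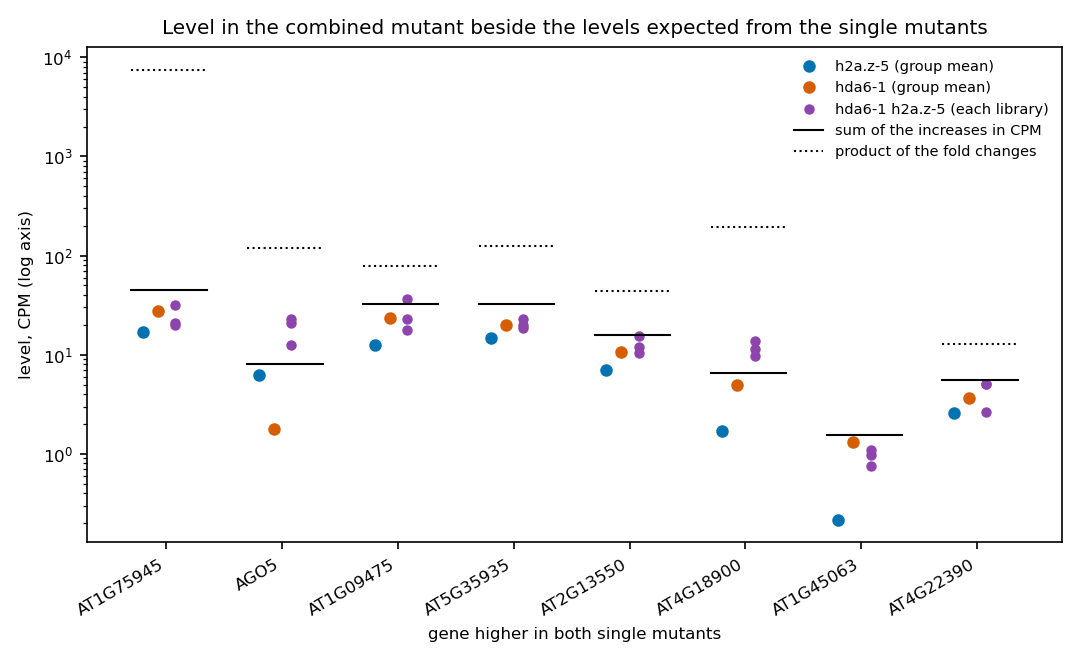
Level in CPM (log axis) of the 8 genes higher in both single mutants: group means of h2a.z-5 and hda6-1, each of the 3 combined libraries, and the level expected from adding the increases in CPM (solid line) or from multiplying the fold changes (dotted line; none for AT1G45063, which had no count in Columbia). Only AGO5 and AT4G18900 have all 3 combined libraries above the solid line, and all 7 genes with a dotted line lie below it.

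Rises seen in hda6-1 and weak or absent in the combined libraries made up the second kind. AT3G29633, an uncharacterized coding gene, was the largest of them. Its level was 0.272, 0.472 and 0.556 CPM in Columbia, 0.897, 0.466 and 0.320 CPM in h2a.z-5, 86.2, 124 and 101 CPM in the libraries labelled hda6-1 and 2.20, 3.83 and 2.94 CPM in those labelled hda6-1 h2a.z-5. The hda6-1 libraries stood above all others, and the combined libraries stood above Columbia and h2a.z-5 without overlap. The hda6-1 step was 7.89 ± 0.27 in the wild type background and 2.35 ± 0.28 in the h2a.z-5 background, a departure of -5.55 ± 0.46 (edgeR adjusted p = 6.31e-05) that held whichever library was left out.

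AT1G67105, a noncoding RNA gene, showed the same shape with more spread. Its level was 0.372, 0.597 and 0.582 CPM in Columbia, 0.283, 0.622 and 0.240 CPM in h2a.z-5, 128, 74.97 and 167 CPM in the libraries labelled hda6-1 and 4.24, 5.47 and 3.81 CPM in those labelled hda6-1 h2a.z-5. Again the groups labelled hda6-1 and hda6-1 h2a.z-5 did not overlap with each other or with the rest. The departure was -4.35 ± 0.68 (edgeR adjusted p = 0.0263). It lost the call without Columbia replicate 1 or 3, h2a.z-5 replicate 1 or 2, hda6-1 replicate 1 or hda6-1 h2a.z-5 replicate 1, with up to 0.288 without h2a.z-5 replicate 2.

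The other 4 reduced rises had smaller or less certain departures. AT5G24240, a gene for a protein like phosphatidylinositol 4-kinase gamma, was at 0.129 ± 0.0586 CPM in Columbia, 0.216 ± 0.113 in h2a.z-5, 12.0 ± 2.64 in hda6-1 and 2.01 ± 0.286 in the combined libraries (-3.27 ± 0.54, edgeR adjusted p = 0.035). The pseudogene AT3G50625 was at 0.0545 ± 0.0266 CPM in Columbia, 0.0658 ± 0.0473 in h2a.z-5, 21.3 ± 4.57 in hda6-1 and 0.897 ± 0.334 in the combined libraries (-4.90 ± 0.85, 0.0449). AT1G36675, which encodes a glycine-rich protein, was at 0.0543 ± 0.00742 CPM in Columbia, 0.127 ± 0.0512 in h2a.z-5, 7.37 ± 0.710 in hda6-1 and 2.07 ± 0.642 in the combined libraries (-3.04 ± 0.53, 0.048), and AT5G35760, a beta-galactosidase related gene, at 0.681 ± 0.138 CPM in Columbia, 0.373 ± 0.0374 in h2a.z-5, 5.52 ± 0.867 in hda6-1 and 0.806 ± 0.150 in the combined libraries (-1.91 ± 0.33, 0.0436). In all 4 the combined group lay above h2a.z-5 and below hda6-1 with no overlap. None of these 4 calls was firm when single libraries were left out. AT5G24240 held only without h2a.z-5 replicate 2, hda6-1 replicate 2 or hda6-1 h2a.z-5 replicate 2 (up to 0.301 without h2a.z-5 replicate 1), and AT3G50625 only without hda6-1 replicate 3 or hda6-1 h2a.z-5 replicate 3 (up to 0.585 without h2a.z-5 replicate 1). AT5G35760 held only without hda6-1 h2a.z-5 replicate 1 (up to 0.226), and AT1G36675 in none of the 12 fits (up to 0.384), both highest without h2a.z-5 replicate 2.

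Besides HDA6, 2 genes lost the rise. The pseudogene AT1G43590 was at 0.198, 0.220 and 0.202 CPM in Columbia, 0.142, 0.181 and 0.0534 CPM in h2a.z-5, 5.45, 4.55 and 6.71 CPM in the libraries labelled hda6-1 and 0.271, 0.291 and 0.329 CPM in those labelled hda6-1 h2a.z-5. The hda6-1 libraries stood above all others, and the combined libraries stood slightly above Columbia. Its departure was -3.54 ± 0.56 (edgeR adjusted p = 0.0286), kept only without Columbia replicate 2, h2a.z-5 replicate 3 or hda6-1 replicate 2 and up to 0.244 without h2a.z-5 replicate 2. PRP4, a proline-rich cell wall protein gene, had the smallest departure of the 31. PRP4 stood at 656, 484 and 621 CPM in Columbia, 706, 693 and 688 CPM in h2a.z-5, 815, 723 and 812 CPM in the libraries labelled hda6-1 and 629, 456 and 574 CPM in those labelled hda6-1 h2a.z-5. Its hda6-1 and h2a.z-5 libraries were above Columbia and above the combined libraries, and the combined libraries overlapped Columbia. In h2a.z-5 the difference from Columbia was not called (0.26 ± 0.09, edgeR adjusted p = 0.103). Against h2a.z-5 the combined libraries were called lower (-0.35 ± 0.09, edgeR adjusted p = 0.0492), so that the hda6-1 step went up in one background and down in the other. The departure was -0.78 ± 0.13 (edgeR adjusted p = 0.0397), and the call was lost whichever library was left out, with up to 0.172 without hda6-1 h2a.z-5 replicate 2.

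Falls seen in h2a.z-5 and missing in the combined libraries were the third kind. The lncRNA gene AT3G05955 had no known role in the annotation used. Its level was 7.46, 11.66 and 9.56 CPM in Columbia, 0.0945, 0.233 and 0.0267 CPM in h2a.z-5, 6.52, 10.45 and 11.8 CPM in the libraries labelled hda6-1 and 4.93, 12.0 and 5.03 CPM in those labelled hda6-1 h2a.z-5. The h2a.z-5 libraries lay far below all others, and the combined libraries overlapped Columbia and hda6-1. The departure was 5.85 ± 0.46 (edgeR adjusted p = 3.80e-05).

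AT3G29120, a pseudogene, had the smallest p of this class. It was at 5.42, 6.26 and 4.65 CPM in Columbia, 0.307, 0.570 and 0.454 CPM in h2a.z-5, 4.39, 6.78 and 4.93 CPM in the libraries labelled hda6-1 and 5.55, 9.14 and 5.81 CPM in those labelled hda6-1 h2a.z-5. Every h2a.z-5 library was below every other library, and the other 3 groups overlapped. Its fall of -3.63 ± 0.18 in the wild type background stood against 0.33 ± 0.14 in the hda6-1 background, a departure of 3.96 ± 0.23 (edgeR adjusted p = 1.36e-06).

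AT2G04080 encodes a transporter of the MATE family, which exports small molecules. Its level was 12.1, 19.4 and 32.6 CPM in Columbia, 2.69, 2.62 and 3.497 CPM in h2a.z-5, 22.4, 26.1 and 23.2 CPM in the libraries labelled hda6-1 and 27.4, 37.2 and 30.1 CPM in those labelled hda6-1 h2a.z-5. The h2a.z-5 libraries did not overlap the rest, and the combined libraries lay within or above the range of Columbia. The departure was 3.19 ± 0.32 (edgeR adjusted p = 3.94e-04). The lncRNA gene AT2G06995 was at 4.26 ± 1.92 CPM in Columbia, 0.854 ± 0.500 in h2a.z-5, 3.65 ± 1.14 in hda6-1 and 3.53 ± 1.53 in the combined libraries, a departure of 2.24 ± 0.24 (edgeR adjusted p = 9.17e-04). These 4 calls held whichever library was left out, and that of AT2G06995 was lost without the replicate block (edgeR adjusted p = 1.00).

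In 2 genes of this class hda6-1 also raised the level. AT5G38005, a noncoding RNA gene, was at 1.19, 1.54 and 1.49 CPM in Columbia, 0.236, 0.207 and 0.214 CPM in h2a.z-5, 12.6, 12.6 and 16.7 CPM in the libraries labelled hda6-1 and 10.36, 13.1 and 7.78 CPM in those labelled hda6-1 h2a.z-5. Columbia was several times above h2a.z-5, and both groups labelled with hda6-1 were far above Columbia and overlapped each other. The hda6-1 step was 3.33 ± 0.20 in the wild type background and 5.53 ± 0.27 in the h2a.z-5 background, a departure of 2.21 ± 0.37 (edgeR adjusted p = 0.0397). AT1G34440, an uncharacterized coding gene, had no count in any h2a.z-5 library and stood at 0.570, 0.252 and 0.480 CPM in Columbia, 5.998, 7.98 and 4.82 CPM in hda6-1 and 3.87, 5.92 and 3.36 CPM in the combined libraries. Its departure is at least 3.58 on the log2 scale with a floor of 3 counts over the h2a.z-5 group (edgeR adjusted p = 0.048). On the linear scale neither lies above the sum: the difference was -2.39 ± 4.81 CPM for AT5G38005, with 1 of 3 replicate numbers positive, and -1.45 ± 0.425 CPM for AT1G34440, with 0 of 3. AT5G38005 held its call only without hda6-1 replicate 3 or hda6-1 h2a.z-5 replicate 3 (up to 0.242) and AT1G34440 only without Columbia replicate 2 (up to 0.221), both highest without h2a.z-5 replicate 2.

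Of the remaining 3 lost falls, AT1G74290, which encodes an alpha/beta-hydrolase, was at 14.2 ± 2.39 CPM in Columbia, 9.15 ± 1.49 in h2a.z-5, 11.8 ± 2.65 in hda6-1 and 19.6 ± 6.83 in the combined libraries (1.34 ± 0.19, edgeR adjusted p = 0.0124). Its combined group was called above hda6-1 by 0.70 ± 0.13 (0.00596), so that the h2a.z-5 step went down in one background and up in the other. The noncoding RNA gene AT4G04223 was at 48.9 ± 9.73 CPM in Columbia, 10.99 ± 4.55 in h2a.z-5, 59.6 ± 5.80 in hda6-1 and 49.8 ± 14.9 in the combined libraries (1.92 ± 0.29, 0.02), and the lncRNA gene AT2G05665 at 0.675 ± 0.0703 CPM in Columbia, 0.0594 ± 0.0161 in h2a.z-5, 0.500 ± 0.253 in hda6-1 and 0.500 ± 0.324 in the combined libraries (3.47 ± 0.57, 0.035). AT1G74290 lost the call without h2a.z-5 replicate 2 or 3, hda6-1 replicate 2 or hda6-1 h2a.z-5 replicate 1 (up to 0.0604 without h2a.z-5 replicate 2), and without the replicate block (0.78). AT4G04223 held only without Columbia replicate 2 or 3, h2a.z-5 replicate 2 or hda6-1 h2a.z-5 replicate 3 (up to 0.0869 without h2a.z-5 replicate 3). AT2G05665 held only without Columbia replicate 2 or hda6-1 h2a.z-5 replicate 3 (up to 0.244 without h2a.z-5 replicate 2).

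Reduced falls completed the class of h2a.z-5. The lncRNA gene AT3G05945 had the smallest p of all genes above the sum. Its level was 22.6, 22.8 and 23.59 CPM in Columbia, 0.520, 0.622 and 0.747 CPM in h2a.z-5, 17.5, 19.2 and 15.5 CPM in the libraries labelled hda6-1 and 13.0, 10.8 and 9.38 CPM in those labelled hda6-1 h2a.z-5. The 4 groups did not overlap: h2a.z-5 was lowest, the combined libraries came next, then hda6-1 and Columbia. The h2a.z-5 step was -5.19 ± 0.17 in the wild type background and -0.67 ± 0.12 in the hda6-1 background, a departure of 4.52 ± 0.21 (edgeR adjusted p = 1.88e-07).

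SADHU5-1 belongs to a family of retroelement-derived loci known for variable silencing among Arabidopsis accessions. Its level was 22.1, 30.7 and 34.2 CPM in Columbia, 0.874, 2.05 and 1.28 CPM in h2a.z-5, 25.9, 41.3 and 36.6 CPM in the libraries labelled hda6-1 and 19.7, 31.2 and 15.1 CPM in those labelled hda6-1 h2a.z-5. The h2a.z-5 libraries stood apart from the other 9, and the combined libraries overlapped both Columbia and hda6-1. The departure was 3.73 ± 0.29 (edgeR adjusted p = 3.80e-05). AT1G18193, an uncharacterized gene and near copy of SADHU5-1, was at 7.31 ± 1.81 CPM in Columbia, 0.317 ± 0.224 in h2a.z-5, 9.03 ± 1.84 in hda6-1 and 5.70 ± 2.28 in the combined libraries (3.86 ± 0.36, 1.97e-04). AT1G56610, a gene for an F-box and leucine-rich repeat type protein, was at 4.18 ± 0.357 CPM in Columbia, 0.415 ± 0.228 in h2a.z-5, 3.13 ± 0.940 in hda6-1 and 1.82 ± 0.753 in the combined libraries (2.56 ± 0.36, 0.0107), and it was no longer called without h2a.z-5 replicate 3 (0.0634) and without the replicate block (0.364).

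The shared fall was AT2G40960, which encodes a protein with an R3H domain that binds single-stranded nucleic acids. Its level was 5.80, 5.502 and 5.71 CPM in Columbia, 1.09, 1.35 and 1.65 CPM in h2a.z-5, 2.47, 2.58 and 2.04 CPM in the libraries labelled hda6-1 and 1.73, 1.45 and 2.12 CPM in those labelled hda6-1 h2a.z-5. Columbia lay above all mutant libraries, and the combined libraries overlapped h2a.z-5 and hda6-1. The falls were -1.25 ± 0.18 in hda6-1 and -2.06 ± 0.19 in h2a.z-5, and the departure was 1.63 ± 0.27 (edgeR adjusted p = 0.0343), kept only without hda6-1 h2a.z-5 replicate 2 and up to 0.148 without h2a.z-5 replicate 1.

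**Figure D4:**
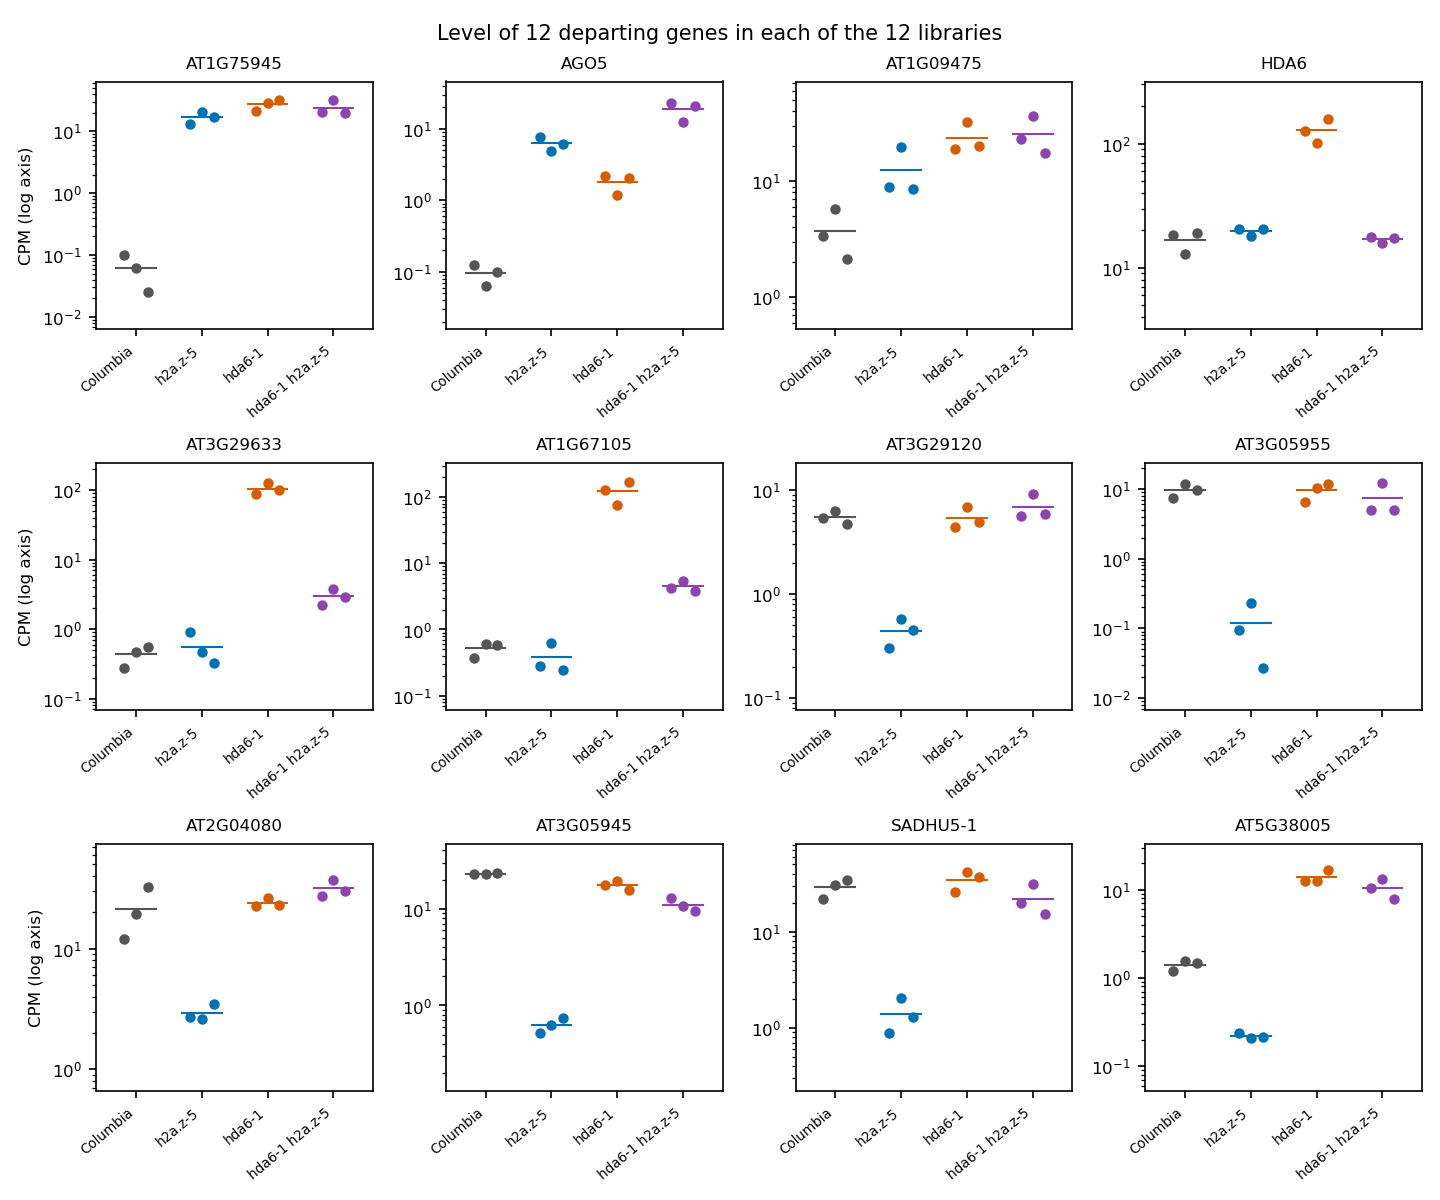
Level in CPM (log axis) of 12 of the departing genes in the 12 libraries, by group; points are libraries and lines are group means. HDA6, AT3G29633 and AT1G67105 are highest in hda6-1, AT3G29120, AT3G05955, AT2G04080, AT3G05945, SADHU5-1 and AT5G38005 are lowest in h2a.z-5, and AT1G75945, AGO5 and AT1G09475 are lowest in Columbia.

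Some of these loci share sequence with other genes, and whether reads were shared between them was not tested. SADHU5-1 and AT1G18193 are copies of each other (99.5% identical over 645 bases), so their values may rest on shared reads. AT4G04223 is 99.2% identical over 1307 bases to AT3G56210, which had a departure of 0.68 (edgeR adjusted p = 0.218), and AT3G29120 is 99.4% identical over 511 bases to AT1G62766. AT2G40960 shares 355 identical bases with AT2G40955, whose fitted departure of -5.12 ± 1.66 had the opposite sign and was not called (edgeR adjusted p = 0.596), and AT1G43590 is 94.4% identical over 499 bases to AT4G08145. In all, 4 of the 31 had a copy of at least 95% identity over at least 50% of the gene. A further 6 genes (AT1G09475, AT2G13550, PRP4, AT5G24240, AT2G05665 and AT1G56610) overlap a gene on the opposite strand, and the sources used here do not say whether reads were counted by strand. Of 58 neighbouring genes tested, up to 2 on each side, 0 were called and 26 had the sign of the gene they flank. Over all genes tested 0.0827% were called below and 0.0681% above the sum, so nothing is read from the 0. The next gene to AT2G04080, AT2G04070, a related transporter gene, had no call (unadjusted p = 0.0040, edgeR adjusted p = 0.439).

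Transposable elements (TEs) are the best known targets of HDA6, and their counts were tested in 11 libraries. Library hda6-1 replicate 1 was left out because it held 0 TEs of chromosome 5 with a count, against 996 and 1003 in hda6-1 replicates 2 and 3. TE counts summed to between 300951 and 484606 per library and were scaled by the library sizes of the genes. Relative to Columbia, 347 of 1759 TEs tested (19.7%) were higher and 23 (1.31%) lower in hda6-1, and 17 (0.966%) were higher and 32 (1.82%) lower in h2a.z-5. In the combined libraries 254 TEs (14.4%) were higher than in h2a.z-5, and 224 (12.7%) were lower than in hda6-1. Departures were called for 23 TEs below the sum (1.31%) and 7 above it (0.398%), a larger share than among genes, which was not tested. Of the 23, 10 had a rise of hda6-1 lost, 8 had it reduced and 5 had a shared rise. Of the 7, 4 had a fall of h2a.z-5 lost, 1 had it reduced, 1 had a fall of hda6-1 lost and 1 was high in the combined libraries alone. With hda6-1 replicate 1 kept, 8 TEs were called below and 2 above, and with h2a.z-5 replicate 1 left out 9 and 3.

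AT2TE06955, chosen after its values were seen, shows a lost rise over measured levels in all groups. It was at 1.14, 1.19 and 1.21 CPM in Columbia, 1.13, 0.881 and 1.01 CPM (h2a.z-5), 34.7 and 55.5 CPM in hda6-1 replicates 2 and 3, and 1.01, 1.35 and 0.964 CPM in the combined libraries. The combined libraries thus lay near Columbia, above and below its narrow range, and the departure was -5.11 ± 0.32 (edgeR adjusted p = 6.02e-07). The 3 largest fitted departures each way rest on groups with almost no counts. AT1TE46575 had 1 count in Columbia, 3 in h2a.z-5, 498 in the 2 hda6-1 libraries and 0 in the combined libraries (edgeR adjusted p = 0.0167), and AT2TE37050 had 0, 4, 350 and 9 (0.0262). AT4TE02595 had 71 counts in 1 library of h2a.z-5, 44 in 1 of hda6-1 and 1 in all other libraries of the fit together, so that its call (0.00239) rests on 2 libraries. Above the sum, AT5TE48590 had 35 counts in Columbia, 0 in h2a.z-5, 21 in the 2 hda6-1 libraries and 17 in the combined libraries (0.0448). AT1TE42665 had 64, 2, 67 and 102 (0.0265), and AT2TE06170 had 32, 3, 13 and 42 (0.0338), in the same order. Some called TEs followed a called gene library by library and are not independent of it: 6 of the 30 lay within 25% of a called gene of the same chromosome wherever either reached 1 CPM, among them AT1TE93275 with AT1G75945 and AT4TE03410 with SADHU5-1.

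The same h2a.z-5 step was measured in a second deacetylase mutant, hda9-1. HDA9 is a relative of HDA6 in the same family, known for roles in flowering and in the activity of expressed genes. The difference between the steps, (hda6-1 h2a.z-5 minus hda6-1) minus (hda9-1 h2a.z-5 minus hda9-1), was tested on 18 libraries and 20771 genes, of which 10 (0.0481%) were higher and 18 (0.0867%) lower. These counts were 3 and 7 without the replicate block and ranged over 4 to 19 and 6 to 32 when 1 library was left out. Among the 31 departing genes 8 were called, 4 each way. The departure that chose the 31 contains the same step in the same hda6-1 and combined libraries, so this count is a description and supports nothing. SADHU5-1 went from 6.36 ± 2.62 CPM in hda9-1 to 0.203 ± 0.139 CPM with h2a.z-5 added, and from 34.6 ± 7.91 to 21.99 ± 8.27 CPM in the hda6-1 pair, a difference of 4.35 ± 0.59 (edgeR adjusted p = 0.0103). AT3G05945 went from 15.5 ± 3.76 to 2.09 ± 0.444 CPM in the hda9-1 pair, a difference of 2.22 ± 0.22 (2.62e-04). The fall of these genes was thus smaller beside hda6-1 than beside hda9-1.

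AT4G18900 went the other way, from 0.341 ± 0.243 to 8.46 ± 2.58 CPM in the hda9-1 pair and from 4.93 ± 1.07 to 11.6 ± 2.14 CPM in the hda6-1 pair (-3.37 ± 0.52, edgeR adjusted p = 0.0148). HDA6 stood at 20.7 ± 1.91 and 16.5 ± 2.56 CPM in the hda9-1 pair (-2.59 ± 0.19, 8.11e-06). AT1G67105, at 1.78 ± 0.837 and 1.14 ± 0.633 CPM in the hda9-1 pair (-4.11 ± 0.59, 0.0108), and AT5G24240, at 0.626 ± 0.152 and 1.15 ± 0.963 CPM (-3.34 ± 0.59, 0.0346), also differed. Over 15 other settings the difference was called in all 15 for HDA6, AT1G67105, AT3G05945 and SADHU5-1, in 14 for AT1G18193, in 11 for AT4G18900, in 7 for AT5G24240 (edgeR adjusted p up to 0.169) and in 4 for AT1G34440 (up to 0.133). For 23 of the 31 genes the difference was not called, which does not show that the steps were alike. AT3G29120, for example, was at 5.31 ± 0.953 CPM beside hda9-1 alone and 6.26 ± 0.821 CPM once h2a.z-5 was added, so that its fall in h2a.z-5 was missing there too (difference 0.09 ± 0.20, edgeR adjusted p = 0.979). AT2G04080 stood at 25.9 ± 6.78 and 20.2 ± 3.68 CPM there, and AT1G75945 at 16.03 ± 2.52 and 11.2 ± 1.98 CPM.

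**Figure D5:**
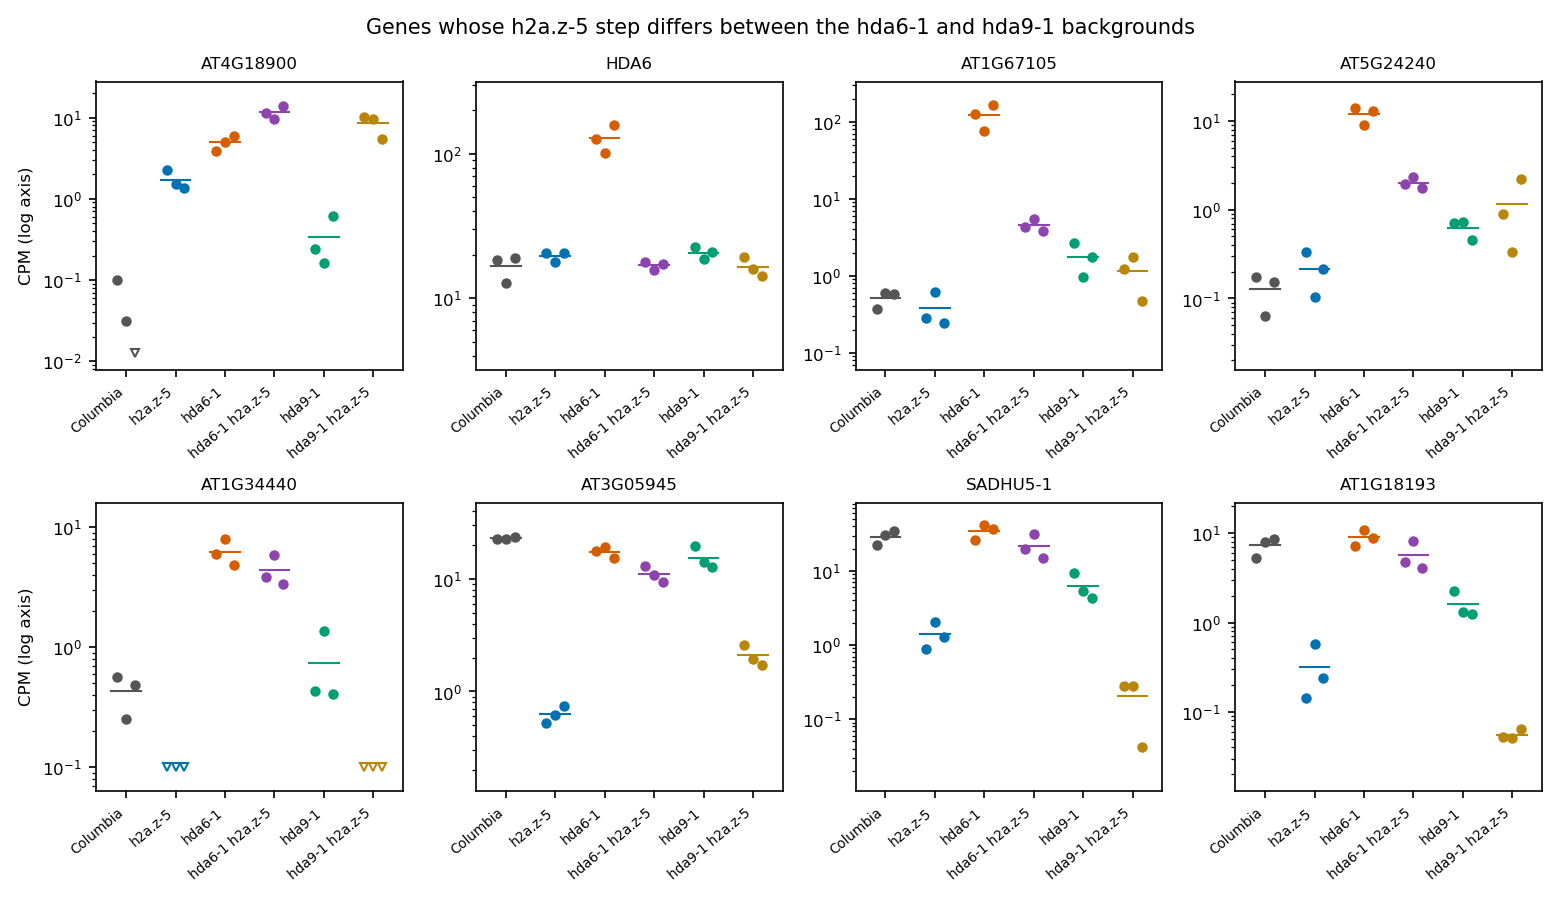
Level in CPM (log axis) in 18 libraries of the 8 departing genes for which the h2a.z-5 step differed between the backgrounds; points are libraries, lines are group means and open triangles are libraries with no count. AT3G05945, SADHU5-1 and AT1G18193 fall further in the hda9-1 pair than in the hda6-1 pair, and AT1G34440 has counts in hda6-1 h2a.z-5 and none in h2a.z-5 or hda9-1 h2a.z-5.

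Few genes of the pathway lists were called. Of 24 lists with 365 members, 341 of them matched, 3 lists held a called gene: HDA6 among the mutated genes, SADHU5-1 among 6 tested silenced loci and AGO5 among 9 tested Argonaute genes. The Argonaute genes had a median departure of -0.31, with 8 of 9 negative, against 0.00488 over all genes. AGO3, a further Argonaute gene, was at 0.742 ± 0.134 CPM in Columbia, 3.46 ± 0.402 in h2a.z-5, 2.13 ± 0.342 in hda6-1 and 5.19 ± 0.329 in the combined libraries (-0.94 ± 0.26, edgeR adjusted p = 0.416). The 15 tested deacetylase genes held no call (median -0.10), the smallest p being that of HDA18 (-1.07 ± 0.24, 0.201), and neither did the 29 genes of DNA methylation (-0.04), the 9 acetyltransferase genes (-0.05), the 10 other H2A genes (0.05) and the 11 genes of SWR1, INO80 and H2A.Z chaperones (-0.03). QQS, an orphan gene among the silenced loci, was at 2.52 ± 0.761 CPM in Columbia, 0.749 ± 0.116 in h2a.z-5, 45.6 ± 8.36 in hda6-1 and 27.8 ± 5.63 in the combined libraries, with a departure of 1.01 ± 0.29 that was not called (edgeR adjusted p = 0.427). The 6 tested silenced loci went both ways: 3 were negative, the median was 0.04 and the values ranged from -3.39 to 3.73.

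FUL was the flowering gene nearest to the threshold. None of 19 tested flowering time genes was called by edgeR, 6 had an unadjusted p under 0.05, and DESeq2 called 2, FUL and AP1. FUL (AGL8 in the annotation), a MADS gene that promotes flowering, was at 6.39 ± 0.701 CPM in Columbia, 10.3 ± 0.425 in h2a.z-5, 4.66 ± 0.387 in hda6-1 and 13.5 ± 0.701 in the combined libraries (0.83 ± 0.16, edgeR adjusted p = 0.0917, DESeq2 adjusted p = 0.0244). AP1, which specifies floral meristems, was at 0.513 ± 0.437 CPM in Columbia, 3.104 ± 0.578 in h2a.z-5, 0.0623 ± 0.0387 in hda6-1 and 2.99 ± 0.795 in the combined libraries (2.84 ± 0.64, 0.21 with edgeR and 0.0359 with DESeq2). The list's median was 0.13. Of 8 tested floral organ and meristem genes, 0 were called, 3 had an unadjusted p under 0.05 and the median was 0.59. That list of 12 genes, of which at least 9 were detected in each library, summed to 24.2 to 28.5 CPM in Columbia, 30.7 to 37.5 CPM in h2a.z-5, 19.9 to 25.4 CPM in hda6-1 and 33.4 to 41.6 CPM in the combined libraries; the part of floral tissue in the values of AGO5, FUL and AP1 was not tested. In these bulk samples, more cells of a type and more RNA per cell cannot be told apart.

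BBX18, a B-box regulator of light responses, was the one gene of 15 tested light signalling genes near the threshold. It was at 81.6 ± 7.84 CPM in Columbia, 83.0 ± 8.43 in h2a.z-5, 36.6 ± 8.45 in hda6-1 and 73.9 ± 9.55 in the combined libraries: the fall of hda6-1 (-1.15 ± 0.13, edgeR adjusted p = 6.64e-05) was not seen at that size in the h2a.z-5 background (-0.17 ± 0.13), and the departure of 0.98 ± 0.18 was called by DESeq2 (adjusted p = 1.69e-04) and not by edgeR (0.0745). The other lists held no gene called by either tool. All 13 leaf and photosynthesis markers were negative (median -0.31, 4 at an unadjusted p under 0.05) and all 19 tested jasmonate genes were positive (median 0.61, 2 at an unadjusted p under 0.05). The jasmonate median was -0.07 without Columbia replicate 3, the median of 13 of the 24 lists changed sign in some fit without 1 library, and genes of one list share their libraries, so these counts are no test. Medians were 0.38 for 14 flavonoid genes, 0.25 for 13 cold and drought genes, 0.15 for 16 auxin genes, 0.13 for 15 cell cycle genes, 0.04 for 10 senescence genes and 0.03 for the light signalling genes. They were -0.02 for 12 phosphate starvation genes, -0.04 for 18 salicylic acid genes, -0.05 for 15 clock genes, -0.16 for 3 seed genes, -0.27 for 10 heat shock genes and -0.49 for 7 root markers.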

How the data were processed

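RNA-seq libraries of 12-day-old seedlings were compared as whole-number read counts per gene and per TE, which the authors deposited as raw count tables. Which aligner, counter, build and strand setting made them is not stated in the sources available here. The submitters' processing notes name TAIR10, Bowtie2 (an aligner, no version) and fastp 0.23.4, SAMtools 1.17, Picard 3.0.0, MACS2 2.2.6 and deepTools 3.5.2, without saying which were used for RNA.

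From the counts, genes passing filterByExpr (minimum count 10, total 15) were fitted with edgeR 4.0.16 in R 4.3.3: TMM factors, group plus replicate number as a block, quasi-likelihood F tests (two-sided, 6 residual degrees of freedom), Benjamini-Hochberg adjusted p under 0.05 over all genes. Printed CPM use TMM factors over 18 libraries. The hda9-1 comparison used 18 libraries (10 residual degrees of freedom). TEs used 11 libraries and the gene factors. DESeq2 1.42.0 was an alternative. Levels of different genes are not per length and were not compared. At depths of 32795474 to 39633678 counts, a floor of 3 counts over a group stood for groups with 0 counts, covering counting error only.

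Replicate numbers pair the samples: deviations from the group mean correlated at 0.27 to 0.66 between libraries of the same number (18 pairs, median 0.46) and at -0.58 to 0.27 between different numbers (36 pairs, median -0.30). Such deviations sum to 0 within a group. Positive values between same numbers therefore bring negative ones between different numbers, which are not separate support. The labels do not say what a number shares. No 2 libraries had identical counts (0 pairs). Simulated counts were made for the 20555 genes, and the changed genes were drawn from those with a mean of at least 1 CPM. The departure test recovered 64.2% of 67 genes changed by 1 on the log2 scale. Among those changed by 2 it recovered 97.0% of 67, and among those changed by 3, 100.0% of 66, with 8 false calls. Recovery for genes of lower level, or with a group near 0, was not measured separately.

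Classes were cut from the calls of the departure and of the 4 single steps. Named genes are HDA6, HTA8, HTA9 and HTA11, in each class up to 6 called genes with the largest departure and up to 6 of the highest mean CPM with a symbol of their own (mean of at least 1 CPM over the 12 libraries), up to 4 called genes of each list, and the 3 largest TE departures each way. The other 5 called genes (AT1G45063, AT4G22390, AT1G74290, AT4G04223 and AT2G05665), the genes near the threshold and the uncalled list genes were named after their values were seen. The members, lists and tests were chosen with earlier results of these data known. Copies were searched with BLAST 2.17.0 in the TAIR10.1 RefSeq annotation.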

Additional observations from a re-analysis of the deposited data

Results flagged for a closer look

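For 8 of the departing genes the h2a.z-5 step differed between the hda6-1 and hda9-1 backgrounds, by the test of the difference itself (edgeR, 18 libraries, replicate number as a block). The log2 difference was negative for AT4G18900 (-3.37, edgeR adjusted p = 0.0148), HDA6 (-2.59, 8.11e-06), AT1G67105 (-4.11, 0.0108) and AT5G24240 (-3.34, 0.0346). It was positive for AT3G05945 (2.22, 0.000262), SADHU5-1 (4.35, 0.0103) and AT1G18193 (4.10, 0.0148), of which SADHU5-1 and AT1G18193 are near-identical copies. For AT1G34440 it was 7.23 (0.041); this gene had 0 counts in h2a.z-5 and in hda9-1 h2a.z-5, so the fitted size depends on the prior count and is no bound. Over 15 other settings the call was lost in some for AT1G18193 (called in 14, adjusted p up to 0.0729), AT4G18900 (11, up to 0.0626), AT5G24240 (7, up to 0.169) and AT1G34440 (4, up to 0.133).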

How the results depend on the processing

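No alternative on the log2 scale turned the direction of a named departure (0 of 610 values). On the linear CPM scale 4 of the 31 called genes did, AGO5 (10.9 CPM), AT4G18900 (5.02), AT5G38005 (-2.39) and AT1G34440 (-1.45), as did HTA11 (-5.96), which was not called. Without the replicate block the counts fell to 7 above and 6 below the sum, with 2 shared rises, 2 reduced hda6-1 rises, 0 shared falls and 1 reduced h2a.z-5 fall; TEs to 3 above and 12 below, and the hda9-1 comparison to 3 higher and 7 lower. All 13 gene calls of that fit were among the 31. The DESeq2 Wald test gave 29 above and 47 below, with 21 shared rises, 14 lost and 10 reduced hda6-1 rises, 3 shared falls and 15 lost h2a.z-5 falls, and held all 31 calls. The fit on all 18 libraries with the replicate block gave 6 below, with 4 shared rises, 1 lost and 1 reduced hda6-1 rise, 0 shared falls and 1 reduced h2a.z-5 fall, and kept 17 of 31. Shared falls numbered 2 with DESeq2 size factors and 2 with no filter beyond 1 count, and reduced h2a.z-5 falls 1 at a mean of at least 1 CPM. TEs numbered 2 above and 8 below with hda6-1 replicate 1 kept, and 14 above with no filter beyond 1 count. The cause of these shifts was not tested.

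Leaving out 1 library gave 8 to 16 genes above and 7 to 12 below, with 5 to 8 shared rises, 1 to 2 lost and 1 to 4 reduced hda6-1 rises, 0 to 3 shared falls, 5 to 10 lost and 1 to 6 reduced h2a.z-5 falls. The count below moved by over 1.5 times without any 1 library except hda6-1 h2a.z-5 replicate 3 (12), and the count above without h2a.z-5 replicate 1 (9) or 3 (8), hda6-1 replicate 1 (9) or 2 (8), or hda6-1 h2a.z-5 replicate 1 (8). TEs ranged over 3 to 7 above and 9 to 24 below, and the hda9-1 comparison over 4 to 19 higher and 6 to 32 lower. Of the 31 genes, 14 were called without each of the 12 libraries in turn: AT1G75945, AGO5, AT1G09475, AT5G35935, AT2G13550, HDA6, AT3G29633, AT3G29120, AT3G05955, AT2G04080, AT2G06995, AT3G05945, SADHU5-1 and AT1G18193. Of these, AGO5 (edgeR adjusted p = 0.264), AT1G09475 (1.00), AT5G35935 (0.13), AT2G13550 (0.149) and AT2G06995 (1.00) lost the call without the replicate block, and AGO5 (0.178), AT1G09475 (0.19) and AT2G13550 (0.723) also in the fit on 18 libraries. Leaving libraries out of the list medians was added after seeing the data.

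With 3 libraries a group the test recovered most simulated departures of 2 or more on the log2 scale and missed many of 1. The simulation changed only genes with a mean of at least 1 CPM, so its recovery does not carry over to weaker genes. A fitted departure of 7.83 for AT2G04070, for example, was not called (edgeR adjusted p = 0.439). A gene not called is thus not shown to be additive.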
